A study of Mus musculus with 9 samples.

Results

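The 2′-5′-oligoadenylate synthetase (OAS) family was examined in 9 RNA-seq libraries of bone marrow-derived DCs from wild-type C57BL/6 mice. The 8 genes described, *Oas1a*, *Oas1b*, *Oas1c*, *Oas1g*, *Oas2*, *Oas3*, *Oasl1* and *Oasl2*, were taken by symbol from the 55471 genes of the deposited counts, and all 8 were among the 16260 genes that passed edgeR's filter on low counts. Marrow of adult female mice was grown in GM-CSF, a growth factor that drives the formation of DCs in culture. The cells were then left unstimulated, stimulated with LPS at 100 ng/mL or treated with IFN-β at 1000 U/mL, each for 6 h, with 3 libraries per group lettered A, B and C. No transgene or deletion was carried by any group. The comparisons asked how the family responded to a bacterial product and to an antiviral cytokine, and whether the responses differed. The labels do not say whether the libraries of a group came from separate mice or cultures, so the p-values measure only the spread between these libraries, which may be technical. In bulk RNA, a change in the number of cells that express a gene and a change in RNA per cell cannot be told apart.

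OAS proteins are sensors of double-stranded RNA in the cytosol. On binding it, the active members join ATP into 2′-5′-linked oligoadenylates, which serve as second messengers of the antiviral response. The genes are textbook targets of type I interferon, which signals through its receptor to transcription factors in the nucleus. LPS acts through a Toll-like receptor on the outside of DCs and leads, among other things, to the secretion of IFN-β.

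The counts on genes summed to 33425803 in the shallowest library and 43735199 in the deepest, and 3 counts corresponded to 0.0674 to 0.106 CPM. CPM here is the share of a gene in the library, after TMM factors had corrected the library size for differences in composition. Every pair of replicates differed by more than sampling noise. All 7 DC markers examined were detected, with a summed level of 4318 to 5156 CPM in unstimulated libraries, 5830 to 6473 CPM in LPS libraries and 4789 to 5075 CPM in IFN-β libraries. The 5 macrophage markers were detected as well and summed to 1428 to 1740, 1639 to 2067 and 1962 to 2247 CPM in the same order. The markers of T cells, B cells, NK cells, mast cells or basophils and erythroid cells each summed to at most 0.354 CPM in any library, and those of neutrophils to between 8.60 and 21.2 CPM. Markers of plasmacytoid DCs, which are strong producers of interferon, summed to 36.4 to 44.2, 209 to 255 and 73.2 to 95.7 CPM. Nearly all of that sum was *Tcf4*, while *Siglech*, their defining surface marker, did not exceed 0.0253 CPM in any library. What part the make-up of the cultures had in the OAS values was not tested.

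All 8 genes lie on chromosome 5 (GRCm38) in 2 blocks. *Oasl2* and *Oasl1* occupy chr5:114896936-114937915, and the *Oas1*, *Oas2* and *Oas3* genes share a cluster of 191320 bases at chr5:120730333-120921652, with 5792417 bases between the blocks. Within the cluster, *Oas1b* and *Oas1c* stand head to head on opposite strands with 120 bases between their annotated starts. RefSeq promoter windows (GRCm38.p6) were matched for 6 of the 8 genes. *Oas1b* and *Oas2* had no window, and the bases before *Oas2* were not searched. In each window the 250 bases before the start were searched on both strands for GAAANNGAAA. These letters are the core of the interferon-stimulated response element (ISRE), a motif bound by transcription factors that interferon activates. This core was present in 2.98% of 32851 windows of all genes and in 4 of the 6 OAS windows. The stretches that hold it are shown because they lie before genes that moved together in the counts, with the matches in capitals, 5′ to 3′ toward the gene:
Oas1a: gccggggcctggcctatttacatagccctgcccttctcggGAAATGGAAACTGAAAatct
Oas1g: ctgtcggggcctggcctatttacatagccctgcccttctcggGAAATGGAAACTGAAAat
Oas1b: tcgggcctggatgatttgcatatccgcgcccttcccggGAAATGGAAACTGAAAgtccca
Oas3: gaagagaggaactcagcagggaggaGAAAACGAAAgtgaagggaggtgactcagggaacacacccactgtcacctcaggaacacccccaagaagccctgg

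The *Oas1a* stretch is the minus strand of chr5:120907526-120907585, the *Oas1g* stretch the minus strand of chr5:120887614-120887673 and the *Oas3* stretch the minus strand of chr5:120777660-120777759. The *Oas1b* stretch is the plus strand of chr5:120812575-120812634, read from the *Oas1c* window on the other strand, since it lies in the 120 bases that both genes share. In *Oas1a*, *Oas1g* and *Oas1b* the core occurred as a pair of overlapping matches close to the start, beginning 20 and 14 bases before it in *Oas1a*, 18 and 12 bases in *Oas1g* and 22 and 16 bases in *Oas1b*. The same matches lay on the reverse strand of *Oas1c*, between 114 and 99 bases from its start. The stretches of *Oas1a* and *Oas1g* had a run of 56 identical bases, and the longest run common to *Oas1a*, *Oas1g* and *Oas1b* was the 19 bases cggGAAATGGAAACTGAAA. *Oas3* had a single match that began 75 bases before its start. The windows of *Oasl1* and *Oasl2* did not hold these letters. For *Oasl1*, the gene with the largest change, the shorter core AANNGAAA of the IRF transcription factors, which is contained in GAAANNGAAA, occurred in 3 places on chr5:114923050-114923129, 1 of them on the reverse strand, and is in capitals here:
Oasl1: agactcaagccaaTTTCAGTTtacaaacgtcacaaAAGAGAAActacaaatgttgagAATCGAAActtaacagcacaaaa

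That shorter core was present in 21.3% of all windows and in 5 of the 6 OAS windows, *Oasl2* being the exception. A match is a description of the letters and not evidence of binding.

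All 8 OAS genes were higher in LPS-activated DCs than in unstimulated DCs, and all 8 were higher in IFN-β-treated DCs. The log2 fold changes ran from 1.31 to 5.67 with LPS (median 2.54) and from 1.25 to 4.07 with IFN-β (median 2.02), while the median over all genes tested was -0.04 and -0.02. Of all genes tested, 32.8% were called higher with LPS and 23.6% with IFN-β, and 16.2% and 8.17% were called higher with a log2 fold change of at least 1, which all 8 members exceeded. Scaled by library size alone, *Oas1c* fell below 1, at 0.73 with LPS and 0.95 with IFN-β. In each of the 8 genes every stimulated library was above every unstimulated one, a separation seen in 34.6% of genes for LPS and 28.5% for IFN-β. Both comparisons use the same 3 unstimulated libraries. None was lower, against 35.4% of all genes with LPS and 23.3% with IFN-β. A call is an adjusted p-value under 0.05 from the quasi-likelihood test of edgeR, adjusted by the Benjamini-Hochberg method over all genes tested.

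**Figure D1:**
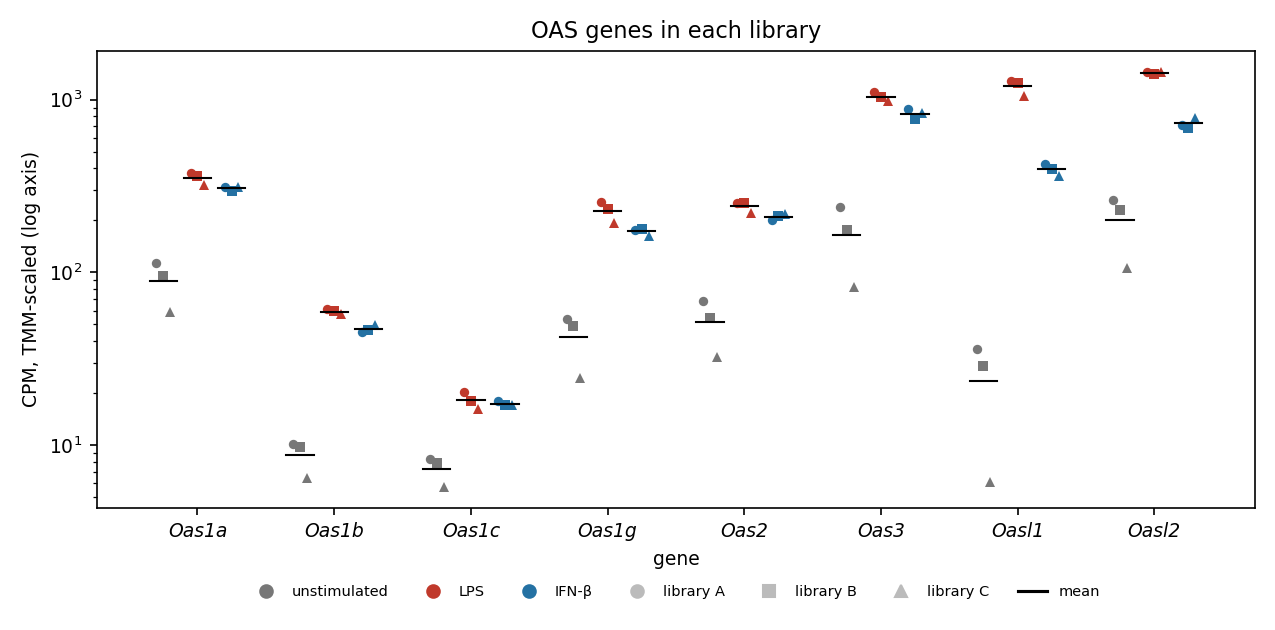
Level of the 8 OAS genes in each of the 9 libraries, in CPM scaled by TMM factors on a log axis. Points are libraries, with a shape for each letter, and the bar is the mean of 3. For all 8 OAS genes the stimulated libraries lie above the unstimulated ones and unstimulated library C is the lowest point.

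Among the members that make oligoadenylate, *Oas1a*, one of the active mouse *Oas1* paralogs, was at 113, 94.9 and 58.9 CPM in unstimulated libraries A, B and C. It was at 377, 362 and 320 CPM with LPS and at 314, 295 and 313 CPM with IFN-β. Both stimulated groups were well clear of the unstimulated one, with log2 fold changes of 1.99 (SE 0.19, adjusted p = 4.3e-06) and 1.79 (SE 0.19, adjusted p = 3.6e-05). *Oas1g*, the other active *Oas1* paralog measured, was at 54.0, 48.8 and 24.5 CPM in unstimulated DCs. It reached 256, 233 and 192 CPM with LPS and 177, 179 and 162 CPM with IFN-β. The groups did not overlap, and the log2 fold changes were 2.42 (SE 0.24, adjusted p = 6.1e-06) and 2.03 (SE 0.24, adjusted p = 7.3e-05). These paralogs cannot be fully separated by reads: 730 windows of 100 bases in their exons were identical, which is 40.9% of the windows of *Oas1a* and 31.2% of those of *Oas1g*, so counts could be lost or split between them.

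*Oas2*, whose protein carries a pair of synthetase units, was at 68.5, 54.7 and 32.4 CPM in the unstimulated libraries. With LPS it was at 252, 251 and 222 CPM, and with IFN-β at 200, 211 and 218 CPM. The stimulated libraries stood close together and far above the unstimulated ones, and the log2 fold changes were 2.22 (SE 0.21, adjusted p = 4.1e-06) and 2.02 (SE 0.21, adjusted p = 3.3e-05). *Oas3*, the longest of the synthetases and the one that binds long double-stranded RNA, was at 238, 176 and 81.9 CPM without stimulation. Its values were 1101, 1036 and 985 CPM with LPS and 877, 776 and 831 CPM with IFN-β. Unstimulated libraries varied more among themselves than stimulated ones did, and the log2 fold changes were 2.66 (SE 0.30, adjusted p = 1.5e-05) and 2.33 (SE 0.29, adjusted p = 1.2e-04).

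The 2 genes that face each other, *Oas1b* and *Oas1c*, had the lowest group means of the 8 genes, in CPM and per length of exon. In unstimulated library C, however, *Oasl1* was at 6.14 CPM, below *Oas1b*. *Oas1b* is known for resistance to flaviviruses, and most laboratory strains, C57BL/6 included, carry a premature stop codon in it. The annotation lists it as a polymorphic pseudogene. Its RNA was measured all the same, at 10.1, 9.75 and 6.45 CPM in the unstimulated libraries, 61.2, 59.5 and 57.2 CPM after LPS and 45.1, 46.3 and 49.8 CPM after IFN-β. The 3 groups were separate, and the log2 fold changes of 2.76 (SE 0.14, adjusted p = 4.5e-08) and 2.43 (SE 0.14, adjusted p = 1.1e-06) had the smallest adjusted p-values of the family. *Oas1c* was at 8.36, 7.84 and 5.71 CPM in the unstimulated libraries, 20.2, 18.1 and 16.1 CPM after LPS and 17.9, 17.1 and 17.1 CPM after IFN-β. The stimulated groups overlapped each other but not the unstimulated libraries, and the log2 fold changes of 1.31 (SE 0.14, adjusted p = 8.1e-06) and 1.25 (SE 0.14, adjusted p = 4.3e-05) were the smallest of the 8 in both comparisons. An exon of *Oas1c* overlaps the opposite-strand gene *Gm43069* over 227 bases, and since the strand setting of the counting is not given in the sources used here, reads of the pair cannot be told apart there.

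The OAS-like genes encode proteins with ubiquitin-like domains at the end of an OAS unit. *Oasl1* lacks synthetase activity and is known to restrain translation of the transcription factor IRF7. It was at 35.8, 28.6 and 6.14 CPM in unstimulated libraries, at 1284, 1250 and 1054 CPM with LPS and at 426, 398 and 362 CPM with IFN-β. The 3 groups were far apart from one another. LPS raised it 50.9-fold (log2 fold change 5.67, SE 0.52, adjusted p = 3.3e-06), which ranked 122 among the 16260 genes, and IFN-β raised it 16.8-fold (log2 fold change 4.07, SE 0.49, adjusted p = 8.1e-05), which ranked 88. Only *Oasl1* among the 8 had a log2 fold change within the top 1% of all genes, whose lower limit was 5.10 with LPS and 3.27 with IFN-β. *Oasl2*, which has kept synthetase activity, was at 263, 231 and 106 CPM in the unstimulated libraries, 1449, 1402 and 1454 CPM after LPS and 716, 686 and 782 CPM after IFN-β. LPS libraries were all above IFN-β libraries, and IFN-β libraries were all above unstimulated ones. *Oasl2* rose 7.18-fold with LPS (log2 fold change 2.84, SE 0.27, adjusted p = 4.0e-06) and 3.65-fold with IFN-β (log2 fold change 1.87, SE 0.26, adjusted p = 2.2e-04).

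Unstimulated library C was the lowest of the 3 unstimulated libraries for all 8 members, as it was for 37.0% of the genes tested. The mean of libraries A and B was 5.25 times library C for *Oasl1*, 2.53 times for *Oas3*, 2.34 times for *Oasl2* and 2.10 times for *Oas1g*. For *Oas2*, *Oas1a*, *Oas1b* and *Oas1c* the ratio was 1.90, 1.77, 1.54 and 1.42. *Irf7*, a transcription factor of the interferon response, showed the same order in these libraries with a ratio of 5.86, and *Usp18*, a negative regulator of the receptor, with a ratio of 2.16. Without library C the log2 fold change of *Oasl1* was 5.21 with LPS and 3.62 with IFN-β, and that of *Oasl2* was 2.53 with LPS and 1.56 with IFN-β. All 16 calls of members against unstimulated DCs held without it. Against the unstimulated library of the same letter, *Oasl1* differed on the log2 scale by 5.15, 5.42 and 7.31 for LPS and by 3.56, 3.77 and 5.77 for IFN-β, so the difference was greatest in the C libraries.

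**Figure D2:**
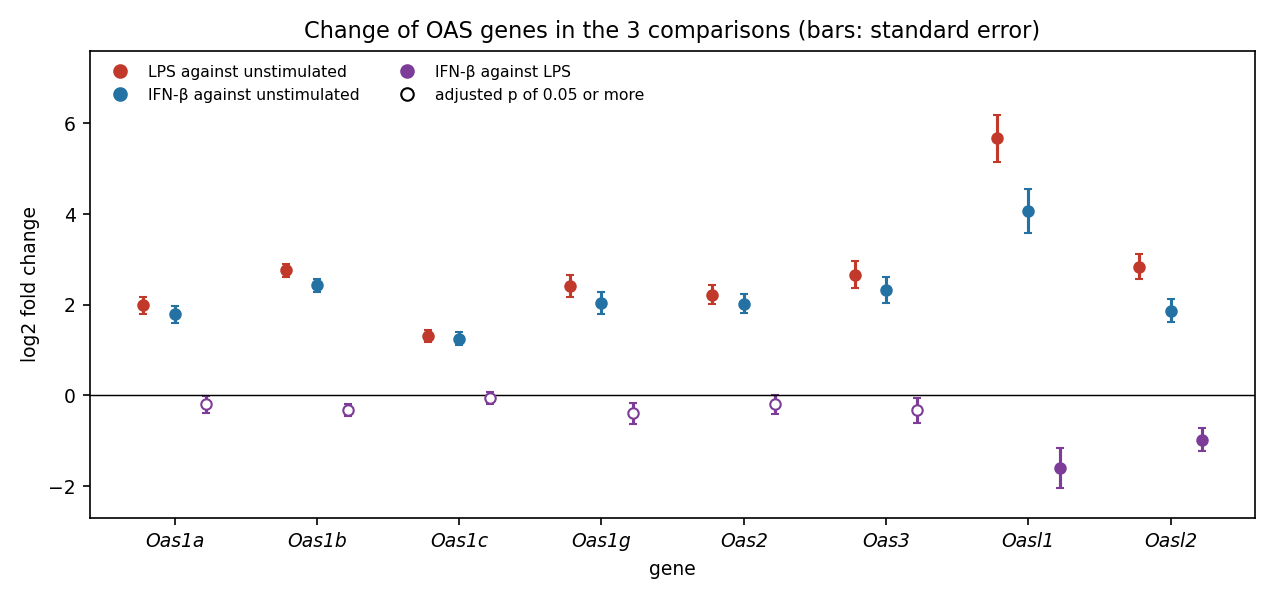
Log2 fold changes of the 8 OAS genes in the 3 comparisons, with the standard error as bars. Filled points have an adjusted p-value under 0.05 and open points do not. In the comparison of IFN-β with LPS only Oasl1 (-1.60) and Oasl2 (-0.98) among the OAS genes have filled points.

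IFN-β and LPS were then compared directly. *Oasl1* was 3.03-fold lower in IFN-β-treated than in LPS-activated DCs (log2 fold change -1.60, SE 0.44, adjusted p = 0.0112), and *Oasl2* was 1.97-fold lower (log2 fold change -0.98, SE 0.25, adjusted p = 0.00843). None of the 8 genes was higher with IFN-β, and 6 did not pass the threshold. Of all genes tested, 23.3% were called lower and 25.8% higher, and the median log2 fold change was 0.02 against -0.33 in the family. In CPM scaled by TMM factors, libraries did not overlap in 7 of the 8 genes, with IFN-β the lower group each time. That compares with 27.3% of all genes, and *Oas1c* was the gene with overlap. The TMM factors were 0.783 to 0.841 in LPS libraries and 0.977 to 1.02 in IFN-β libraries, so this separation depends on them.

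For the 6 genes that did not pass, the intervals bound the difference between the stimuli. The log2 fold change of *Oas1b* was -0.33 (95% interval without adjustment -0.62 to -0.05, adjusted p = 0.0528), and that of *Oas1g* was -0.39 (95% interval -0.90 to 0.11, adjusted p = 0.180). *Oas3* differed by -0.33 (95% interval -0.95 to 0.29) and *Oas2* by -0.20 (95% interval -0.65 to 0.24). *Oas1a* differed by -0.20 (95% interval -0.61 to 0.21), and *Oas1c* by -0.06 (95% interval -0.35 to 0.23). Scaled by library size alone, which shifted the median of all genes by 0.27, the difference was 0.08 for *Oas1a*, 0.07 for *Oas2* and 0.22 for *Oas1c*, so the direction of these 3 depended on the scaling. With that scaling *Oas1b*, *Oas1g* and *Oas3* differed by -0.06, -0.11 and -0.05, and *Oasl1* and *Oasl2* by -1.32 and -0.70. In how many genes the libraries stayed apart with that scaling was not counted. Same-letter libraries deviated together in these data. With the letter as a block 4 members were lower with IFN-β, the additional genes being *Oas1b* (adjusted p = 0.0106) and *Oas1g* (adjusted p = 0.0259). Without unstimulated library C, which belongs to neither of the groups compared, 5 members were lower, with *Oas3* (adjusted p = 0.0321) also below the threshold.

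Levels can be compared between genes only per length of exon. For *Oas1a* and *Oas1g*, whose identical windows (40.9% and 31.2%) could lose or split counts, the level per length, rank and share are uncertain. In unstimulated DCs the summed level of the family was 148 ± 56.9 CPM per kb (SD, n = 3), with 196, 164 and 85.1 in libraries A, B and C. It was 1207 ± 88.6 CPM per kb with LPS and 698 ± 18.2 CPM per kb with IFN-β. *Oas1a* led in unstimulated DCs with 47.2 ± 14.7 CPM per kb, followed by *Oasl2* at 31.3 ± 13.0 and *Oas3* at 23.4 ± 11.1. *Oas1g* was at 18.1 ± 6.74, *Oas2* at 11.6 ± 4.09, *Oasl1* at 9.02 ± 5.93, *Oas1b* at 4.40 ± 1.01 and *Oas1c* at 3.04 ± 0.584 CPM per kb. The ranges of every pair of neighbours in this order overlapped across libraries. Within each library, however, *Oas1a*, *Oasl2*, *Oas3*, *Oas1g* and *Oas2* kept this order. *Oasl1* followed them in libraries A and B. In library C it was at 2.35 CPM per kb, below *Oas1b* (3.24) and *Oas1c* (2.37). In LPS-activated DCs the order was *Oasl1* (459 ± 47.7 CPM per kb), *Oasl2* (225 ± 4.49), *Oas1a* (187 ± 15.7), *Oas3* (147 ± 8.26), *Oas1g* (97.0 ± 13.8), *Oas2* (54.3 ± 3.87), *Oas1b* (29.8 ± 1.01) and *Oas1c* (7.54 ± 0.867). No neighbours in that order overlapped. In IFN-β-treated DCs *Oas1a* (163 ± 5.58 CPM per kb) and *Oasl1* (152 ± 12.4) led with overlapping ranges, though *Oas1a* was above *Oasl1* within each library. *Oas3* (117 ± 7.15) and *Oasl2* (114 ± 7.67) followed, again with overlap, and *Oasl2* was the higher of this pair in library C. These genes were followed without overlap by *Oas1g* (73.8 ± 3.97), *Oas2* (47.1 ± 2.03), *Oas1b* (23.6 ± 1.23) and *Oas1c* (7.22 ± 0.203). With the longest transcript as the length, *Oasl2* came first in unstimulated DCs at 64.0 CPM per kb and in IFN-β-treated DCs at 233 CPM per kb, because its exons together span 6374 bases and its longest transcript 3123. With that length *Oas3* (220 CPM per kb) also stood above *Oas1a* (187 CPM per kb) in LPS-activated DCs, without overlap.

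**Figure D3:**
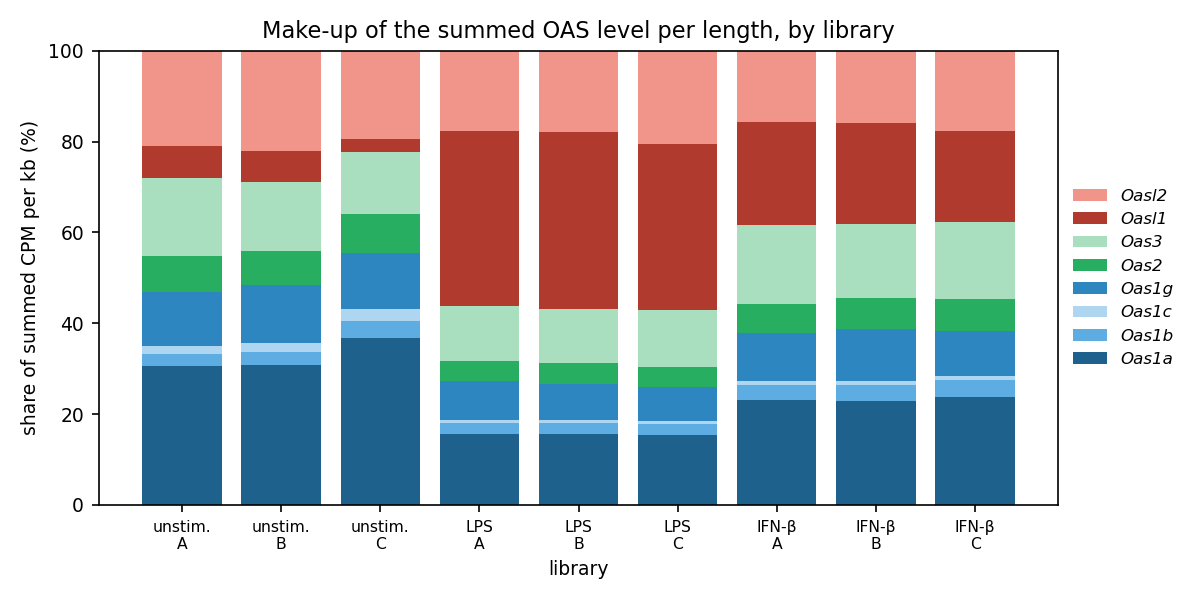
Share of each OAS gene in the summed CPM per kb of the family, in percent, for each of the 9 libraries. The share of Oasl1 was 2.77% to 7.02% in unstimulated libraries, 36.4% to 38.9% with LPS and 21.7% on average with IFN-β.

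The measured shares of *Oasl1* and *Oas1a* differed between the libraries of the 3 groups. *Oasl1* made up 5.49% ± 2.37 (SD, n = 3) of the summed level per length without stimulation, 37.9% ± 1.31 after LPS and 21.7% ± 1.54 after IFN-β. *Oas1a* made up 32.7% ± 3.46, 15.5% ± 0.175 and 23.4% ± 0.447 in the same order. The shares of both genes were separate in all 3 pairs of groups. With 3 libraries against 3, the two-sided exact permutation test gave p = 0.1 for each of these, the smallest it can give (0.120 after Benjamini-Hochberg adjustment over 24 tests), so this test cannot reach 0.05 with 3 libraries against 3. The share of *Oasl2* was 20.9% ± 1.34 without stimulation, 18.7% ± 1.60 after LPS and 16.4% ± 1.10 after IFN-β. With the longest transcript as the length the shares were 31.8%, 28.2% and 25.2% for *Oasl2* and 4.88%, 33.5% and 19.6% for *Oasl1*, so the size of a share depended on the length used. Shares of 1 sum depend on each other, and a larger share of *Oasl1* lowers the others.

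A list of 7 further genes of the oligoadenylate pathway held *Abce1*, *Pde12*, *Akap7* and the paralogs *Oas1d*, *Oas1e*, *Oas1f* and *Oas1h*, of which 4 were tested. With LPS 1 was higher and 2 were lower (median log2 fold change -0.20), where 32.8% of all genes were higher and 35.4% lower. With IFN-β 1 was higher and 2 were lower (median -0.21), where 23.6% of all genes were higher and 23.3% lower. *Abce1*, which encodes a ribosome recycling factor, was at 87.0 ± 6.56 CPM (SD, n = 3) without stimulation, 43.7 ± 2.25 after LPS and 49.1 ± 3.51 after IFN-β, log2 fold changes of -0.99 (adjusted p = 1.0e-06) and -0.82 (adjusted p = 1.8e-05). *Pde12*, a phosphodiesterase that degrades 2′-5′-oligoadenylates, was at no less than 18.6 CPM in any unstimulated library, and at 14.8 ± 0.799 CPM after LPS and 17.1 ± 0.317 after IFN-β, log2 fold changes of -0.43 (adjusted p = 3.9e-04) and -0.23 (adjusted p = 0.0287). The call of *Pde12* with IFN-β was lost without unstimulated library B (adjusted p = 0.0852), unstimulated library C (adjusted p = 0.107) or IFN-β library A, B or C (adjusted p = 0.0581, 0.0583 and 0.0811), and without a filter on low counts (adjusted p = 0.108). *Akap7*, whose protein also has 2′-5′ phosphodiesterase activity, had log2 fold changes of 0.02 (adjusted p = 0.868) and -0.19 (adjusted p = 0.227) and was not called. Between the stimuli *Pde12* (log2 fold change 0.21, adjusted p = 0.0417) was higher with IFN-β and *Oas1d* (-1.29, adjusted p = 0.0419) was lower, and neither passed without LPS library B, LPS library C or IFN-β library B. *Oas1d* was counted 1, 0 and 2 times in unstimulated libraries, 11, 27 and 15 times with LPS and 9, 4 and 13 times with IFN-β. Its scaled counts were 23.8 times higher with LPS (95% exact counting interval 7.72 to 119) and 9.54 times higher with IFN-β (2.92 to 49.2). The intervals cover counting error only. *Oas1e* had at most 1 count, *Oas1h* at most 3 and *Oas1f* 0 counts in any library, which is not above the smallest detectable level at this depth.

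In a list of 12 genes of interferon signalling, 11 were higher with LPS, where 32.8% of all genes were higher. None was lower (median log2 fold change 2.05), against 35.4% of all genes. With IFN-β 11 were higher and 1, *Irf3*, was lower (median 1.29), where 23.6% of all genes were higher and 23.3% lower. *Usp18* was at 41.1 ± 16.1 CPM without stimulation, 1078 ± 111 after LPS and 529 ± 24.3 after IFN-β, log2 fold changes of 4.71 (adjusted p = 1.0e-07) and 3.69 (adjusted p = 3.0e-06). *Irf7* was at 141 ± 99.1, 1424 ± 250 and 1225 ± 151 CPM, log2 fold changes of 3.34 (adjusted p = 2.1e-04) and 3.12 (adjusted p = 7.2e-04). *Socs1*, an inhibitor of JAK kinases, was at 37.4 ± 2.10, 254 ± 46.2 and 133 ± 6.05 CPM, log2 fold changes of 2.76 (adjusted p = 1.9e-08) and 1.83 (adjusted p = 1.9e-06). *Ifnb1*, which encodes IFN-β itself, was counted 0, 0 and 1 times in unstimulated DCs, 137, 117 and 93 times with LPS and 9, 5 and 9 times with IFN-β. The scaled count ratio was 468 with LPS (95% counting interval 83.4 to 18538) and 25.3 with IFN-β (4.11 to 1043). Between the stimuli 7 of the 12 genes were lower with IFN-β, against 23.3% of all genes. None was higher (median -0.38), against 25.8% of all genes. The differences were -1.03 for *Usp18* (adjusted p = 0.00427), -0.94 for *Socs1* (adjusted p = 6.8e-05) and -4.20 for *Ifnb1* (adjusted p = 2.5e-06).

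Other cytosolic sensors of nucleic acid were examined in a list of 9 genes. With LPS 7 were higher and 2, the adaptors *Mavs* and *Sting1*, were lower (median log2 fold change 2.08), against 32.8% and 35.4% of all genes. With IFN-β 7 were higher and *Mavs* was lower (median 1.61), against 23.6% and 23.3% of all genes. *Ifih1*, which encodes the RNA sensor MDA5, was at 79.9 ± 23.5 CPM without stimulation, 1595 ± 278 after LPS and 610 ± 72.3 after IFN-β, log2 fold changes of 4.32 (adjusted p = 6.1e-08) and 2.93 (adjusted p = 4.0e-06). *Dhx58*, the gene of the related protein LGP2, was at 42.3 ± 14.6, 340 ± 10.7 and 189 ± 14.0 CPM, and *Ddx58*, the gene of RIG-I, at 127 ± 33.7, 843 ± 65.6 and 589 ± 47.7 CPM. All 3 of these helicases were lower with IFN-β than with LPS, *Ifih1* by a log2 fold change of -1.39 (adjusted p = 2.5e-04), *Dhx58* by -0.85 (adjusted p = 0.00511) and *Ddx58* by -0.52 (adjusted p = 0.0238). *Zbp1*, a sensor of Z-form nucleic acid, was at 70.0 ± 22.8, 491 ± 16.4 and 352 ± 41.2 CPM and differed between the stimuli by -0.48 (adjusted p = 0.0668). In all, 5 of the 9 genes of the list were lower with IFN-β than with LPS (median -0.48), against 23.3% of all genes. The 2 that were higher were the adaptors *Mavs* and *Sting1*, where 25.8% of all genes were higher.

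**Figure D4:**
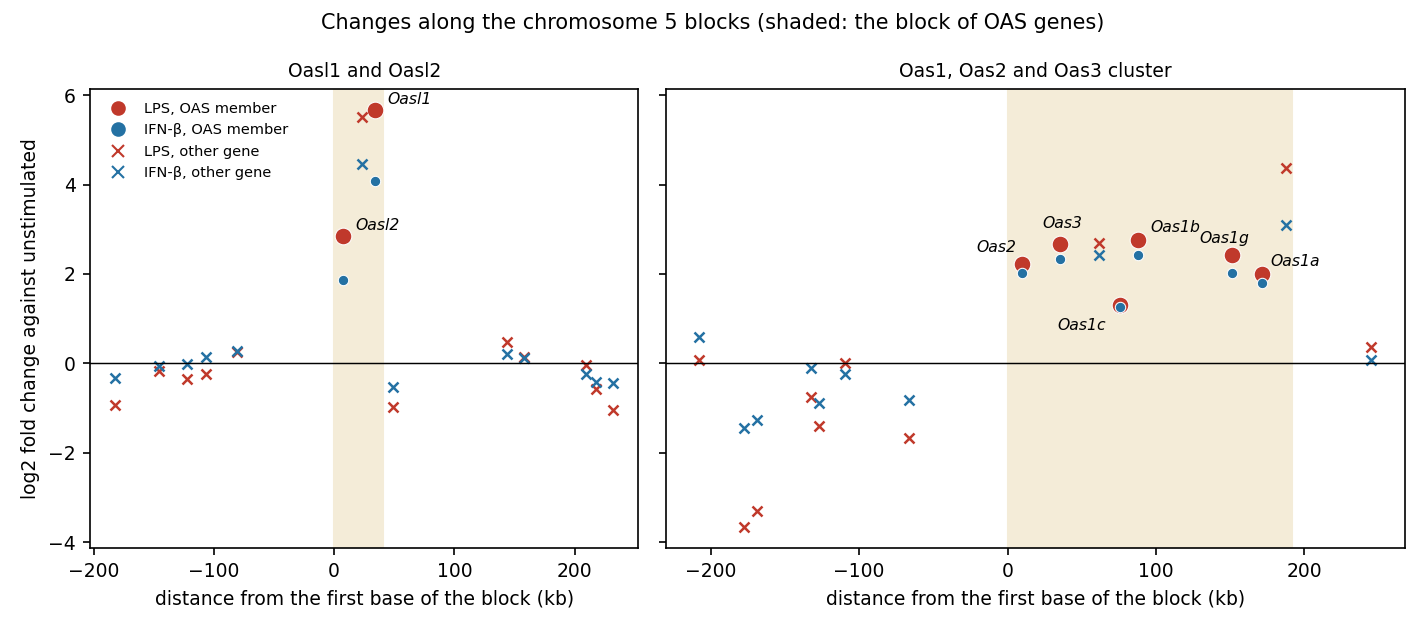
Log2 fold change against unstimulated DCs by position for OAS members (circles) and other tested genes (crosses) around the pair of OAS-like genes on the left and the cluster of Oas1, Oas2 and Oas3 genes on the right. The x axis is the distance in kb of the middle of a gene from the first base of the block, which is shaded. All 8 members lie above 1, and neighbours outside the shaded blocks lie at or below 0.60 in both comparisons.

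The changes were then set against those of the genes around the family. Within 200000 bases of a member, 22 other genes were tested, of which 3 were higher and 10 lower with LPS (median log2 fold change -0.21) and 4 were higher and 8 lower with IFN-β (median -0.08). Of all genes tested, 32.8% were higher and 35.4% lower with LPS, and 23.6% were higher and 23.3% lower with IFN-β. The paralog *Oas1d* is among the 22, and without it 2 of 21 were higher with LPS and 3 with IFN-β. Those that rose by at least 1 on the log2 scale, *Oas1d*, *Gm13822* and *Gm43069*, were all inside the blocks. *Gm13822*, which overlaps 38 exon bases of *Oasl1* on the opposite strand, was at 0.0797 ± 0.0528 CPM without stimulation, 3.68 ± 0.213 after LPS and 1.79 ± 0.313 after IFN-β, and its scaled counts were 47.1 times higher with LPS (95% counting interval 25.3 to 99.0) and 22.9 times higher with IFN-β (12.2 to 48.5). *Gm43069*, which overlaps *Oas1c*, rose from 0.117 ± 0.0455 CPM to 0.773 ± 0.175 with LPS and 0.641 ± 0.164 with IFN-β. Without the strand setting, reads of these genes and of their OAS partners cannot be told apart where they overlap.

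Genes outside the blocks went the other way where they moved by as much. *Tpcn1*, the gene of an endolysosomal cation channel, fell from 45.6 ± 2.14 CPM to 4.57 ± 0.512 with LPS (log2 fold change -3.31, adjusted p = 4.5e-09) and to 19.1 ± 2.08 with IFN-β (-1.26, adjusted p = 5.3e-06). *2510016D11Rik* had log2 fold changes of -3.66 (adjusted p = 8.4e-07) and -1.44 (adjusted p = 3.8e-04). The log2 fold change with LPS was -1.66 for *Rasal1*, -1.40 for *Rita1* and -1.05 for *Unc119b*.

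Members varied together across the 9 libraries. Pearson's r of log2(CPM + 0.5) between members ran from 0.949 (*Oas1c* with *Oasl2*) to 0.999, and *Oasl1* and *Oasl2* had r = 0.995. Outside the family, the genes most like its mean were *Ifi206*, of the interferon-inducible p200 family (r = 0.999), *Stat2* (r = 0.998), the antiviral tether *Bst2* (r = 0.998), the GTPase *Irgm1* (r = 0.998) and the RNA-binding helicase *Znfx1* (r = 0.998). These values describe 9 libraries in 3 groups that share their stimuli, and most of the variation lies between the groups.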

How the data were processed

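RNA-seq libraries were prepared after ribosomal RNA depletion and sequenced as paired reads of 100 bases. According to the submitters' processing notes, adapters were removed with Trim Galore 0.6.0 and reads were mapped to GRCm38 with STAR 2.7.8a. The methods of the paper name another version of STAR, and another GENCODE release than the M21 used here. The values deposited by the authors are raw read counts on genes, not normalized. The strand setting is not given in the sources used here. Genes were tested with edgeR 4.0.16 in R 4.3.3, with TMM factors, filterByExpr, 1 term per condition over all 9 libraries and quasi-likelihood F-tests, and p-values were adjusted over 16260 genes. The standard error is the absolute log2 fold change divided by the square root of F. Coordinates and exon lengths came from GENCODE M21, and 55230 identifiers matched. Same-letter libraries had correlated deviations from their group means in all 9 pairs (0.134 to 0.546). The letters were therefore taken to pair the samples in the same-letter differences and in the block, which was an alternative. The main fit had no term for the letters, so its standard errors, intervals and p-values ignore this pairing. The 8 members and all gene lists were chosen with earlier results of these data known. The genes named from a list were at most the 4 with the largest change past the threshold, together with neighbours that moved by at least 1 on the log2 scale and the 5 genes most like the family. *Mavs*, *Sting1*, *Irf3* and *Akap7* were named after their values were seen. Some genes of the lists are not reported here. The model was also run on simulated counts in which a small set of genes changed with LPS alone and libraries were drawn independently. That simulation could not test the scaling or the pairing. Alternatives comprised DESeq2 1.42.0, other scalings and filters, a block for the letters, each comparison alone and leaving out each library.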

Additional observations from a re-analysis of the deposited data

How the results depend on the processing

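All 16 calls of members against unstimulated DCs held under the 16 alternatives, and *Oasl1* and *Oasl2* were lower with IFN-β than with LPS in all 16 (largest adjusted p = 0.0396 and 0.0335). The number of members that differed between IFN-β and LPS, 2 as reported, was 4 without a filter on low counts, 4 with the replicate block, 5 with the 2 groups fitted alone, and 2 to 5 when a library was left out, 5 being without unstimulated library C. The block changed no other call of a member. Scaling by library size alone shifted the median over all genes in the comparisons (LPS -0.58, IFN-β -0.31, IFN-β against LPS 0.27), gave *Oas1a*, *Oas2* and *Oas1c* differences of 0.08, 0.07 and 0.22 between IFN-β and LPS, none past the threshold, and left 4 of 7 signalling genes different. That scaling also moved the share of changed genes that were higher from 48.1% to 21.9% with LPS, from 50.3% to 22.3% with IFN-β and from 52.5% to 77.9% between the stimuli. The genes of the oligoadenylate pathway list that differed between the stimuli, 2 as reported, numbered 1 without a filter on low counts, 1 with at least 10 counts in every library, 0 with DESeq2 and 0 to 2 when a library was left out, 0 being without LPS library B, LPS library C or IFN-β library B. The cause was not tested. At this depth genes under 3 counts could not be distinguished from 0.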
